A study of Arabidopsis thaliana with 12 samples.

Results

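Plastid-encoded genes are the protein-coding genes that the probe annotation places on the plastid genome. Members were the genes with a probe set of 1 gene on that genome whose signal reached 100 in at least 1 of 12 arrays. This gave 68 genes, of 69 plastid genes with a probe set of their own. In all, 17647 probe sets passed the same filter, and those of 1 gene stood for 9740 genes. They comprised 15 photosystem II genes, 15 ribosomal protein genes, 9 genes of the NDH complex, 6 of the ATP synthase, 6 of the cytochrome b6f complex, 5 of photosystem I, 4 of the plastid RNA polymerase and 8 others. The gene left out was ndhF, whose highest signal was 43.2. Just inside the threshold stood rps14 with a highest signal of 102.9, petD with 109.2 and petN with 122.9. Mitochondrial genes were left out. Another 8 probe sets matched several plastid genes at once and were not used.

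The arrays compared Arabidopsis thaliana arf6 arf8 double mutants, plants left with a single intact allele across both loci, and Columbia wild type. ARF6 and ARF8 are auxin response factors, transcription factors that act in flower maturation. Titles give the intermediate plants as arf6/arf6 ARF8/arf8, whereas the design text gives ARF6/arf6 arf8/arf8, so the text refers to them as single-copy plants. Each genotype was sampled as stem (about 0.5 cm directly under the inflorescence) and as flowers of stages 1-10, 11-12 and 13-14, all from untreated plants grown for 6 weeks in long days. Each of the 12 combinations had 1 array and none had a replicate, so every p-value below measures the spread between arrays of different tissues and genotypes. Values were signal intensities, tested as log2(signal + 50) with limma over all 17647 probe sets, and an adjusted p under 0.05 counted as a call. No probe set was listed for ARF6 or ARF8, so the genotype labels could not be checked against the mutated genes.

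The plastid genome codes for core subunits of the photosynthetic membrane complexes, for part of the plastid ribosome and for the core of one of the RNA polymerases that transcribe it. The remaining subunits are made from nuclear genes and imported. Plastid genes are transcribed largely as runs of neighbours on shared transcripts, by a bacterial-type polymerase whose core is encoded by the rpo genes and by nuclear-encoded phage-type polymerases. Photosystem and other electron transport genes depend mainly on the bacterial-type enzyme, while rpoB and its neighbours depend on the nuclear-encoded enzymes. Green stems and sepals photosynthesise, and petals and stamens lose or never build much of this apparatus as they mature. Most plastid transcripts lack the long tails of nuclear messengers. The labels do not say how the RNA was primed for labelling, and the part of priming in these values was not tested.

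Array medians lay between 191.85 and 235.3 and trimmed means between 500.03 and 500.04. The single-copy array of stages 13-14 stood apart, with a GAPDH 3' to 5' ratio of 0.655 against 0.922 to 1.61 on the other arrays. The single-copy array of stages 1-10 had the highest signal on the 25S and 5S rRNA controls, 179.8 and 112.9, and on 4 of the 6 bioB controls. Tests whose calls change without these arrays are also given without them, while single-array values from them have no such check. The 68 plastid genes made up 1.49%, 1.70% and 2.07% of the total signal in arf6 arf8, single-copy and wild-type stem, and 0.836% to 1.36% in the 9 flower arrays. All 3 stem arrays therefore lay above all 9 flower arrays in plastid share.

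**Figure D1:**
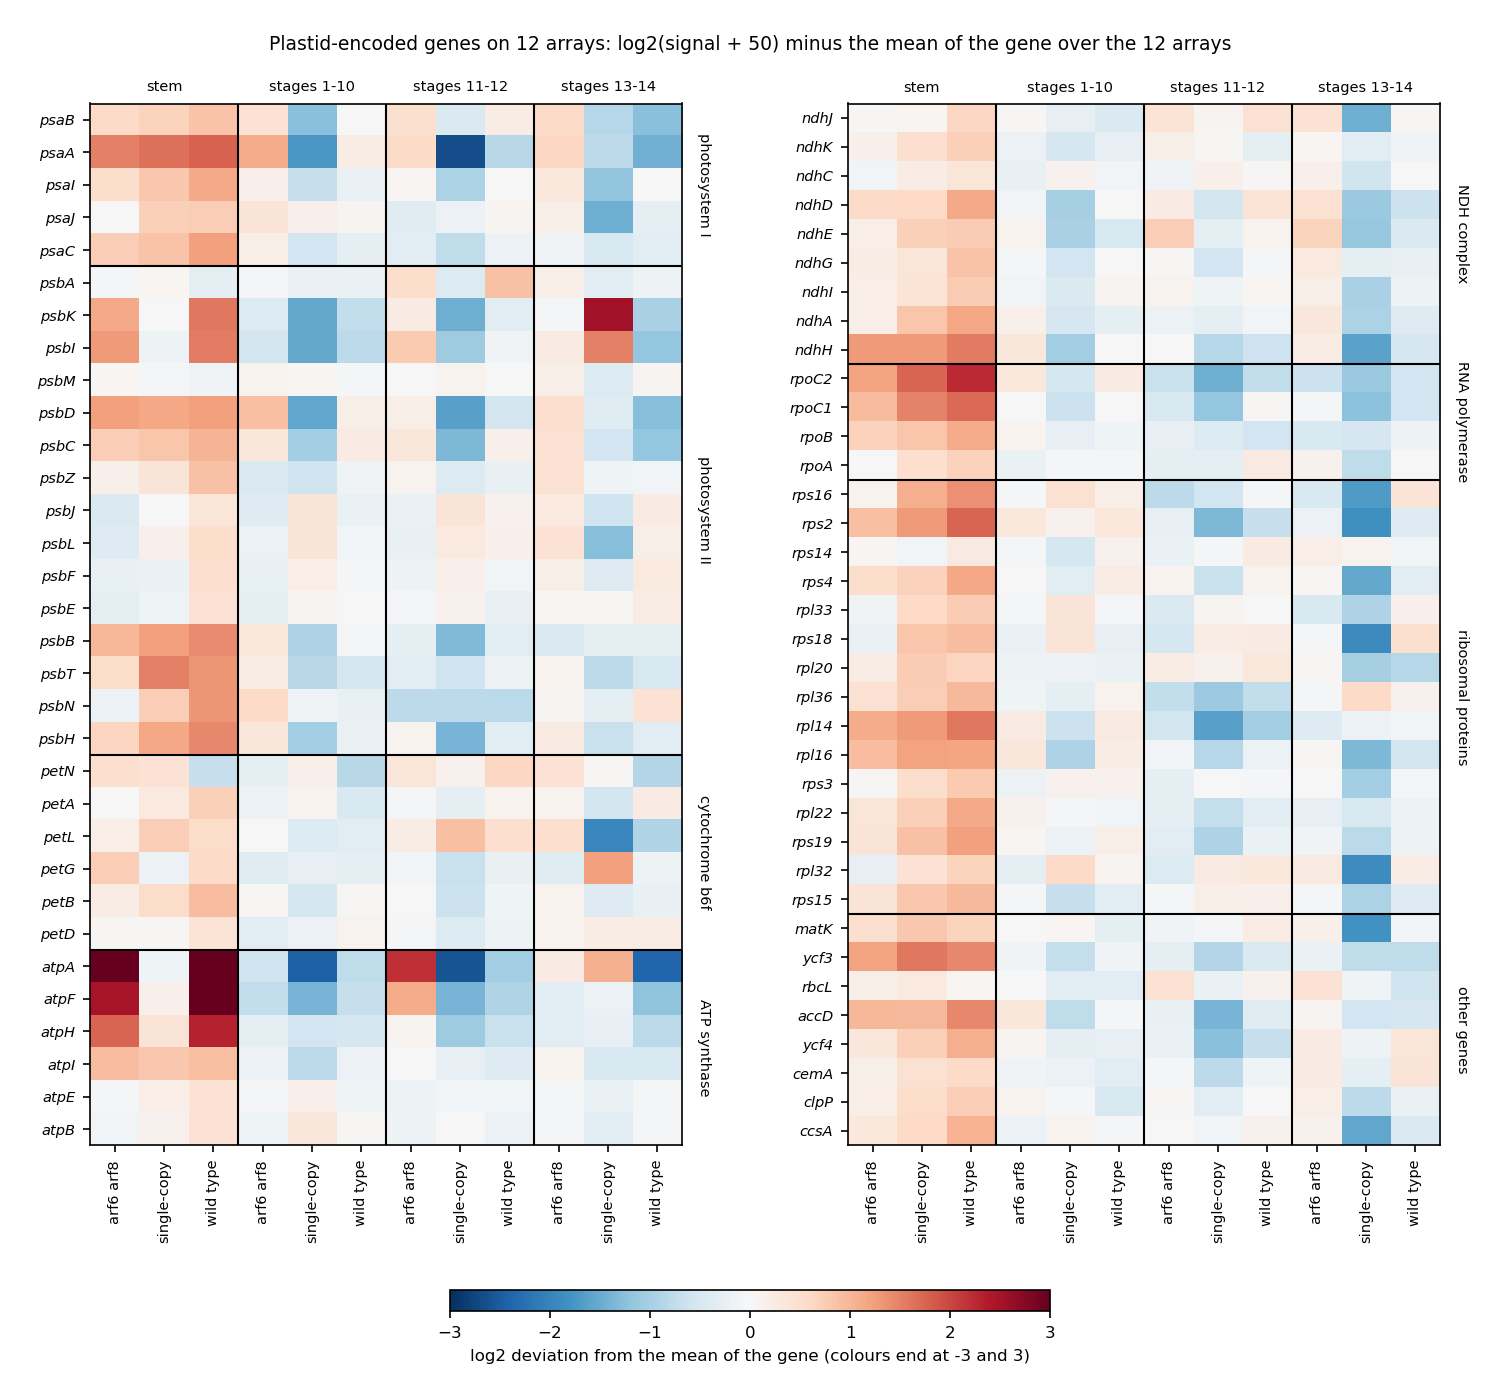
Heat map of the 68 plastid-encoded genes (rows, by class and in genome order) on the 12 arrays (columns, by tissue and then genotype). Colour gives log2(signal + 50) minus the mean of the gene over the 12 arrays. The wild-type stem column holds the highest value for 53 genes, and the single-copy flower columns hold the lowest for 63. Such counts were not made over all probe sets.

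Stem arrays carried the highest value for 60 of the 68 genes, and the wild-type stem alone for 53. The lowest value fell on a single-copy flower array for 63 genes, of which 32 were lowest at stages 13-14, 23 at stages 11-12 and 8 at stages 1-10. Of these 3 arrays, 2 are those that stood apart. The single-copy array of stages 11-12 had the highest GAPDH 3' to 5' ratio, 1.61. Its actin 3' to 5' ratio was also the highest, 7.13, close to 7.09 on wild-type stages 11-12. Highest and lowest arrays were not counted over all probe sets, so these counts are not read as particular to plastid genes. The spread over the 12 arrays differed widely among genes: the log2 range was 0.59 for psbM, 2.09 at the median and 6.05 for atpA. It reached 2 or more for 37 genes. By class, the median range was widest for the ATP synthase genes, 2.55, and narrowest for the cytochrome b6f genes, 1.54. A class that holds both steady and variable genes is best described gene by gene, which follows in order of function.

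Stem was compared with the mean of the 3 flower stages across the 3 genotypes. Transcripts of 43 of the 68 plastid genes rose in stem and none fell, where 18.7% of all probe sets rose. The median difference over the 68 genes was 0.87 on the log2 scale, against 0.11 over all probe sets, and 65 genes lay above 0. The classes differed in how many members rose: 4 of 4 RNA polymerase genes, 4 of 5 photosystem I genes, 11 of 15 ribosomal protein genes, 4 of 6 ATP synthase genes, 6 of 9 NDH genes, 7 of 15 photosystem II genes and 1 of 6 cytochrome b6f genes, with 6 of the 8 others. In bulk tissue, more plastid-rich cells and more transcript per cell cannot be told apart. The filter itself favoured stem for 5 genes (atpI, rpoB, ycf3, psbN and petD) that reached a signal of 100 in stem arrays alone, and 4 of these were called. Among the 63 genes that also reached it in flowers, 39 were called. All 3 stem arrays exceeded all 9 flower arrays for 29 of the 68 genes, against 11.2% of all probe sets. With 1 array left out the count of risen genes lay between 22 and 47: it was 23 without the wild-type stem, 22 without the single-copy stem and 44 without the arf6 arf8 stem, where 8.91%, 7.53% and 11.7% of all probe sets rose. The 21 genes that stayed called whichever array was left out were psaC, psaI, psbB, psbT, psbH, atpF, atpH, atpI, ndhH, rpoB, rpoC1, rpoC2, rps2, rps4, rps19, rpl14, rpl16, rpl22, rpl36, accD and ycf3. Of these, atpI, rpoB and ycf3 reached the signal filter in stem arrays alone. The filter was not redone with arrays left out, so the calls of these genes are not read as stable.

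**Figure D2:**
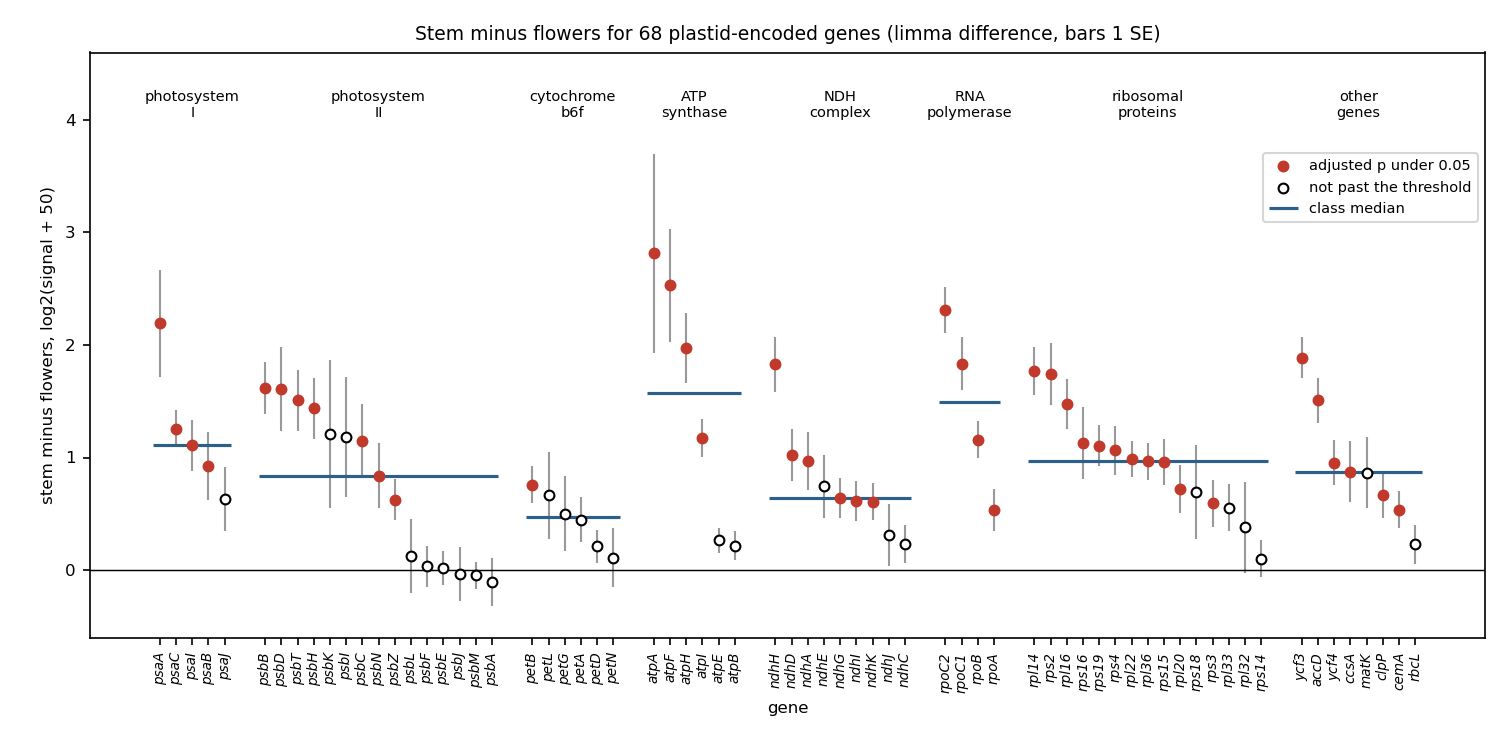
Difference between stem and flowers for each of the 68 genes (vertical axis, log2(signal + 50), limma difference with a bar of 1 SE), ordered within class. Filled points passed the threshold and open points did not, and the horizontal lines are class medians, which run from 0.47 for the cytochrome b6f genes to 1.57 for the ATP synthase genes.

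Photosystem I takes electrons from plastocyanin and passes them to ferredoxin. Its paired core proteins are encoded by psaA and psaB, its iron-sulfur subunit by psaC and small membrane subunits by psaI and psaJ. The psaA signal was 4335.2, 4780 and 5247.1 in arf6 arf8, single-copy and wild-type stem. In flowers it ran from 193.2 to 3300.5 with a median of 846.8. Every stem array was above every flower array, and psaA rose by 2.19 ± 0.48 log2 units (SE, adjusted p = 0.00615). Without the single-copy stem that call was lost, with an adjusted p of 0.0642. The psaC signal was 519.4, 559.4 and 745.6 in arf6 arf8, single-copy and wild-type stem. Its 9 flower values ran from 148.5 to 334.3 with a median of 222.9, so the tissues again did not overlap, and psaC rose by 1.26 ± 0.16 (SE, adjusted p = 0.000336). psaI rose by 1.11 ± 0.23 (SE, adjusted p = 0.00449). psaB rose by 0.92 ± 0.30 (SE, adjusted p = 0.038), although its arf6 arf8 stem value of 8463.1 lay under its highest flower value of 8492.4. The psaB call was lost with 6 of the 12 arrays left out in turn and with quantile normalization. psaJ did not pass, with a difference of 0.63 ± 0.29 (SE, adjusted p = 0.114) and an arf6 arf8 stem value of 5225.1 inside its flower range of 1875.4 to 6949.8.

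Photosystem II splits water, and its 15 plastid genes fell into distinct sets. psbB and psbC, which encode the inner antenna proteins, and psbD, which encodes one of the paired reaction centre proteins, rose in stem. The psbB signal was 633.4, 761 and 872.2 in arf6 arf8, single-copy and wild-type stem, against 88.7 to 378.9 (median 230) in flowers. No flower array reached the stem values, and psbB rose by 1.62 ± 0.23 (SE, adjusted p = 0.000659). The psbD signal was 2803.9, 2672.9 and 2774.2 in the same stem order, nearly equal across genotypes, while the flower values spread from 341.5 to 2230.4. psbD rose by 1.61 ± 0.37 (SE, adjusted p = 0.00875) and psbC by 1.15 ± 0.33 (SE, adjusted p = 0.0214). psbD and psbC share an overlap in the genome, so their probe sets may see the same transcripts. The small subunit genes psbT and psbH, which lie next to psbB, rose by 1.51 and 1.44. psbZ and psbN also passed, with differences of 0.63 and 0.84, but psbN had a signal of at most 97.5 in flowers and kept its call with only 2 of the 12 arrays left out in turn.

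A second set of photosystem II genes showed almost no difference between stem and flowers. psbE and psbF, which encode the subunits of the photosystem II cytochrome, had differences of 0.01 ± 0.15 and 0.03 ± 0.18 (SE). The neighbouring psbL and psbJ had 0.13 ± 0.33 and -0.03 ± 0.24 (SE). psbM, a small subunit gene, was at 13028.4, 12209.9 and 11643.3 in arf6 arf8, single-copy and wild-type stem and at 9443.3 to 14202 in flowers. Its stem values lay within its flower range, and its difference was -0.05 ± 0.12 (SE, adjusted p = 0.792). psbA, which encodes the reaction centre protein that is continually replaced in the light, was at 454.7, 491.1 and 379.3 in stem and at 341.2 to 905.5 in flowers. Its difference of -0.11 ± 0.22 was the lowest among the 68 genes (SE, adjusted p = 0.722). The psbA and psbM arrays thus did not follow psbB or psbD. The remaining pair, psbK and psbI, had large but variable differences of 1.21 ± 0.66 and 1.18 ± 0.53 (SE) that did not pass, and is described with its neighbours further on.

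The cytochrome b6f complex links the photosystems. petB, which encodes its cytochrome b6, was the only gene of the class to rise: 9699.4, 12168.6 and 15940.3 in arf6 arf8, single-copy and wild-type stem, against 5286.3 to 8917.1 in flowers. That difference was 0.76 ± 0.16 (SE, adjusted p = 0.0061), and it was lost without the wild-type or the single-copy stem array. petA, which encodes cytochrome f, had 8067, 9946.5 and 13342.4 in the same stem order and 5484.8 to 9576 in flowers. Only the arf6 arf8 stem overlapped the flowers, and the difference of 0.45 ± 0.20 did not pass (SE, adjusted p = 0.102). The petL signal was 917.5, 1361.2 and 1193.6 in arf6 arf8, single-copy and wild-type stem. It ran from 169.2 to 1518.7 in flowers, where both extremes were single-copy arrays, and the difference of 0.66 ± 0.39 did not pass (SE, adjusted p = 0.206). petG, petD and petN, which encode a small subunit, subunit IV and another small subunit, did not exceed 147.8, 109.2 and 122.9 on any array and gave differences of 0.50, 0.21 and 0.11.

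The ATP synthase uses the proton gradient to make ATP. Its genes lie in separate places: atpA, atpF, atpH and atpI together, and atpB and atpE elsewhere. The first set rose in stem and the second did not pass. Of the first set, atpI reached the signal filter in stem arrays alone. The atpA signal, for the alpha subunit, was 6185.7, 649.8 and 8327.3 in arf6 arf8, single-copy and wild-type stem, against 76.8 to 3481 (median 401.5) in flowers. The single-copy stem lay inside the flower range while the other stems lay above it. The difference of 2.81 ± 0.88 was the largest among the 68 genes, but also had a wide error (SE, adjusted p = 0.0325), and the call was lost with 7 of the 12 arrays left out in turn. atpF and atpH, for membrane subunits, rose by 2.53 ± 0.50 and 1.97 ± 0.31 (SE, adjusted p = 0.00399 and 0.00108) and stayed called whichever array was left out. atpB, for the catalytic beta subunit, was at 14127.2, 16190.3 and 20103.3 in arf6 arf8, single-copy and wild-type stem and at 11961.7 to 18778.3 in flowers. atpB and atpE overlap in the genome, and their differences were 0.21 ± 0.13 and 0.26 ± 0.11 (SE, adjusted p = 0.222 and 0.0969).

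The NDH complex, related to respiratory complex I, carries electrons back from the stromal side of photosystem I into the plastoquinone pool. The ndhA signal was 2080, 3243 and 4070.5 in arf6 arf8, single-copy and wild-type stem, against 906.2 to 2306.3 (median 1477.7) in flowers. The arf6 arf8 stem fell inside the flower range, and ndhA rose by 0.97 ± 0.26 (SE, adjusted p = 0.0156). ndhH had 389.5, 388.4 and 483.8 in the same stem order and 9.1 to 179.4 in flowers. It rose by 1.83 ± 0.24, the largest difference of the class (SE, adjusted p = 0.000402). ndhI rose by 0.62 ± 0.18 with no overlap between tissues (SE, adjusted p = 0.0228), and ndhD, ndhG and ndhK rose by 1.02, 0.64 and 0.61. ndhC, ndhJ and ndhE had differences of 0.23, 0.31 and 0.75 and did not pass. Of the 6 NDH calls, 1 (ndhH) held whichever array was left out. The other 5 were lost without the wild-type stem and without the single-copy stem.

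All 4 plastid RNA polymerase genes passed the test in stem, 2 of them with limits: rpoB reached the signal filter in stem arrays alone, and the rpoA call was easily lost. The rpoC2 signal, for the second part of the split beta prime subunit, was 904.4, 1322.1 and 1908.3 in arf6 arf8, single-copy and wild-type stem. In flowers it ran from 98.7 to 460.9 with a median of 213.6. Stem and flowers were far apart, and the difference of 2.31 ± 0.21 had the smallest adjusted p among the 68 genes (SE, adjusted p = 3.70e-05). rpoC1, for the first part of that subunit, rose by 1.83 ± 0.24 and rpoB, for the beta subunit, by 1.16 ± 0.16 (SE, adjusted p = 0.000341 and 0.000583). rpoB was dim throughout, with 126.5, 144.9 and 186.5 in stem and at most 68.6 in flowers. rpoA, for the alpha subunit, lies apart among ribosomal protein genes. It rose by 0.53 ± 0.19 (SE, adjusted p = 0.0487), and that call was lost with 8 of the 12 arrays left out in turn.

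Plastid ribosomal protein genes rose in 11 of 15 cases, with a class median of 0.97. The rpl14 signal was 2146.1, 2416.2 and 3020.5 in arf6 arf8, single-copy and wild-type stem, against 278.3 to 1178.8 (median 729.2) in flowers. With no overlap between the tissues, rpl14 rose by 1.77 ± 0.21 (SE, adjusted p = 0.000237). rps2, which lies next to the atpI gene, had 3038.5, 3957.4 and 5476.5 in the same stem order and 410.1 to 2022.7 in flowers. It rose by 1.74 ± 0.27 (SE, adjusted p = 0.0011). Another 9 genes of the class rose by 0.59 to 1.48, among them rpl16 by 1.48, rps16 by 1.13, rps19 by 1.11, rps4 by 1.06 and rpl22 by 0.99. The 4 that did not pass were rps14, rps18, rpl32 and rpl33, with differences of 0.10, 0.70, 0.38 and 0.55. rpl33 was at 4554.4, 7487.5 and 8386 in arf6 arf8, single-copy and wild-type stem and at 2563.3 to 6457.9 in flowers. The arf6 arf8 stem lay inside the flower range for both rpl33 and rpl32. rps3 passed only narrowly, with a difference of 0.59 ± 0.21 (SE, adjusted p = 0.0499), and was lost with 9 of the 12 arrays left out in turn.

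Among the other genes, ycf3, which encodes a photosystem I assembly factor, had the largest difference. It reached the signal filter in stem arrays alone. Its signal was 311.1, 414.2 and 375.3 in arf6 arf8, single-copy and wild-type stem and at most 94.9 in flowers, and the difference was 1.89 ± 0.18 (SE, adjusted p = 6.32e-05). accD, for a subunit of the acetyl-CoA carboxylase that feeds fatty acid synthesis, rose by 1.51 ± 0.20 (SE, adjusted p = 0.000409). ycf4 and ccsA, for assembly factors of photosystem I and of c-type cytochromes, rose by 0.96 and 0.87, clpP, for a protease subunit, by 0.67, and cemA, for an envelope membrane protein, by 0.54. matK, the intron maturase gene, had 5994.8, 7474.9 and 6797.7 in arf6 arf8, single-copy and wild-type stem and at most 4991.1 in flowers. Its tissues did not overlap, yet the difference of 0.87 ± 0.31 missed the threshold (SE, adjusted p = 0.0558). rbcL, for the large subunit of Rubisco, was at 285.1, 317.5 and 259.5 in the same stem order and at 148.9 to 362 in flowers. Its difference was 0.23 ± 0.17 (SE, adjusted p = 0.324).

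Read along the genome, in the gene order of the TAIR10.1 annotation, the stem difference was shared by neighbours in several places. These 13 runs, known as shared transcripts or gene clusters, hold 54 of the 68 genes. They were drawn up after the values had been seen and are described without a test. In 4 runs every gene rose: rps2-atpI-atpH-atpF-atpA, rpoB-rpoC1-rpoC2, psbD-psbC-psbZ and the ribosomal protein run from rps19 to rpl36 with rpoA. The first and second of these are complete only through atpI and rpoB, which passed the signal filter in stem arrays alone. In another 4 no gene passed: psbE-psbF-psbL-psbJ (differences of -0.03 to 0.13), atpB-atpE (0.21 to 0.26), petL-petG-psaJ-rpl33-rps18 (0.50 to 0.70) and psbK-psbI (1.18 to 1.21). The other 5 runs were mixed. In psbB-psbT-psbH-petB-petD, 4 of 5 genes rose and petD, dim on every array, did not pass. From ndhH to ndhD 6 of 7 rose, psaC included, as did 4 of 5 from accD to petA, 2 of 3 in psaA-psaB-rps14 and 1 of 3 in ndhC-ndhK-ndhJ. Genes of the ATP synthase and of photosystem II were found both in runs where every gene passed and in runs where none did. A run without a call can still hold large differences: psbK-psbI lay above psbZ, which was called at 0.63. Whether the difference goes with the run was not tested. Probe sets of neighbours on 1 transcript are not independent measurements.

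The nuclear genes for the same complexes gave a check on whether the stem difference was shared by the imported subunits. Of 71 nuclear photosynthesis genes listed, 13 had a probe set of 1 gene in the probe table. That table left 8730 probe sets unlisted, so genes without an entry cannot be taken as absent from the array. Among the 13 were LHCB4.1 and LHCB4.2 of the light-harvesting antenna, PSAE1 and PSAN of photosystem I and PETM of the cytochrome b6f complex. One of them rose in stem, PSBY of photosystem II, by 0.37 ± 0.13 (SE, adjusted p = 0.0474), and the median difference of the 13 was 0.04. Their summed signal was 73350 to 91844 in stem and 66912 to 87923 in flowers, so the tissues overlapped. All 5 nuclear genes for plastid ribosomal proteins with such an entry (of 27 listed) rose, with a median of 0.60. PRPS6 rose most, by 0.84 ± 0.13 (SE, adjusted p = 0.00092), followed by PRPS10, PRPL17, PRPL3 and PRPL29 with 0.72, 0.60, 0.59 and 0.51. Of 2 chlorophyll synthesis genes, PORB rose by 0.65 ± 0.17 (SE, adjusted p = 0.0158), and CHLM had a difference of 0.24. Among 12 mitochondrial probe sets none rose, 4 fell and the median was -0.46. Of the listed plastid transcription factors and polymerases, the only gene with such an entry was RPOTMP, which did not reach the signal filter. Whether the plastid genes differ from the nuclear ones beyond these counts was not tested.

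Tissue markers were compared between stem and flowers. Pollen markers with a probe set of 1 gene in the probe table were MGH3 and ANX1 (2 of 23 listed). Their summed signal was 14 to 20.4 in stem and 88.9 to 666.7 in flowers. The tapetum marker A9 (1 of 14) had 5.6 to 176.3 in stem and 1950.2 to 3866 in stage 1-10 flowers. It had 17 to 53.3 at stages 11-12 and 6.6 to 8.9 at stages 13-14, so stem overlapped the later flowers. The secondary wall markers IRX10, IRX15 and IRX15L (3 of 15) summed to 620.9 to 743.3 in stem, within the flower range of 327.8 to 798.3. None of the 13 floral organ identity genes had a probe set of 1 gene in the probe table. The 5S rRNA control was at 6.8 to 22.1 on stem arrays and 25.6 to 112.9 on flower arrays. The actin 3' control was at 5821.6 to 6802.7 on stem arrays and 3254.8 to 4998.5 on flower arrays. The part of cell makeup and of RNA differences in the stem result was not tested.

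The size of the stem difference varied with genotype. The median over the 68 genes was 0.32 in arf6 arf8, 1.13 in single-copy plants and 1.16 in wild type, from 1 stem and 3 flower arrays each. All probe sets gave medians of 0.08, 0.12 and 0.10. In arf6 arf8, 11 genes were at least 2-fold higher in stem than in flowers on the log2(signal + 50) scale, against 39 in single-copy plants and 38 in wild type. The shares of all probe sets at that size were 4.88%, 6.36% and 5.04%. In single-copy plants 2 of the 3 flower arrays are those that stood apart. For the ATP synthase genes single-copy plants had the lowest median, with a median of 1.44 in arf6 arf8, 1.08 in single-copy plants and 2.11 in wild type. Photosystem I gave 0.36, 1.51 and 1.22, photosystem II 0.12, 0.38 and 1.27, and ribosomal proteins 0.48, 1.27 and 1.16 in the same order. With 1 array per genotype and tissue, these differences between genotypes have no test. Without the arf6 arf8 stem the pooled median difference of the 68 genes was 1.18 in place of 0.87.

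**Figure D3:**
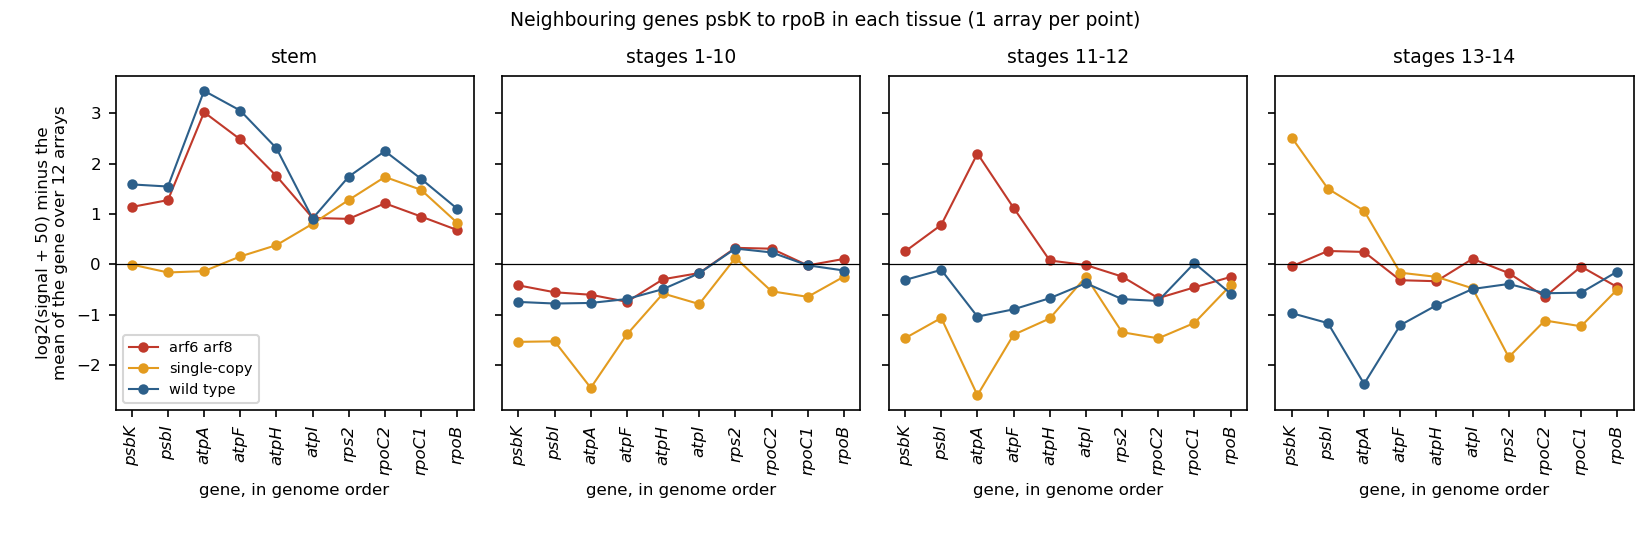
The 10 neighbouring genes from psbK to rpoB in genome order (horizontal axis), 1 panel per tissue and 1 line per genotype. The vertical axis is log2(signal + 50) minus the mean of the gene over the 12 arrays. In stem, the single-copy line is low from psbK to atpH and joins the others from atpI on, and at stages 13-14 it is high at psbK, psbI and atpA.

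Within the run from psbK to rpoB, atpA, atpF, psbK and rpoC2 were among the 5 genes with the widest range over the 12 arrays. At stages 13-14, psbK was at 443.6 in arf6 arf8, 2857.2 in single-copy plants and 209.1 in wild type. psbI was at 661.7, 1627.5 and 213.6, and atpA at 861.3, 1555 and 98.2, in the same order. The single-copy array of stages 13-14, which stood apart, was thus the highest of the 3 for each of these genes. At stages 11-12 the order was another one: atpA was at 3481 in arf6 arf8, 76.8 in single-copy plants and 324 in wild type, and atpF at 739.9, 87.6 and 145.3. In stem, the single-copy values were the low ones, with atpF at 1977.2 in arf6 arf8, 354.5 in single-copy plants and 2965.5 in wild type. atpI, beyond atpH, was at 123.1, 109.7 and 121.7 in the same stem order, nearly level. From rps2 onward the single-copy stem followed the other stems. Since each value is a single array, none of these gene-by-array differences has an error.

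Flower stages were compared across the 3 genotypes, to ask how plastid transcripts change as flowers mature. Between stages 1-10 and 11-12, 3 of the 68 genes fell and none rose, where 3.77% of all probe sets fell. These shares are close, so the 3 of 68 are not read as particular to plastid genes. The median difference of the 68 genes was -0.01, against -0.08 over all probe sets. The 3 genes were rpl14, rpl36 and rpoC2. The rpl14 signal over stages 1-10, 11-12 and 13-14 was 1154.1, 649.5 and 729.2 in arf6 arf8, 604.8, 278.3 and 850.8 in single-copy plants and 1178.8, 446.1 and 912.1 in wild type. It was lowest at stages 11-12 in each genotype, and the difference from stages 1-10 was -1.03 ± 0.26 (SE, adjusted p = 0.0364). The rpl36 signal was 2799.4, 1804.3 and 2948.5 in arf6 arf8, 2532.5, 1396.4 and 4585.3 in single-copy plants and 3297.7, 1791.2 and 3358.6 in wild type. It fell by 0.77 ± 0.20 at stages 11-12 (SE, adjusted p = 0.0418). The rpoC2 signal was 460.9, 208.6 and 213.6 in arf6 arf8, 234.2, 98.7 and 140.1 in single-copy plants and 435.2, 198.9 and 226.7 in wild type. It fell by 0.96 ± 0.25 (SE, adjusted p = 0.0419) and had no return of comparable size. The number of genes called ranged from 0 to 4 with 1 array left out. It was 0 without any one of 5 arrays: wild-type stages 1-10, stages 11-12 and stem, single-copy stages 11-12 and arf6 arf8 stages 1-10. It was 1 without the single-copy array of stages 1-10 and 1 without the single-copy stem, where 5.49% and 6.93% of all probe sets changed.

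Between stages 11-12 and 13-14, 1 of the 68 genes rose and none fell, where 0.55% of all probe sets rose. This was rpl36, by 1.09 ± 0.20 (SE, adjusted p = 0.0224), and its signal at stages 13-14 was above that at stages 1-10 in each genotype. Neighbouring rpl14 had a difference of 0.86 ± 0.26 (SE, adjusted p = 0.172), and petL, in the opposite direction, of -1.32 ± 0.47 (SE, adjusted p = 0.24). The rpl36 call was lost without the single-copy array of stages 13-14, without the wild-type array or the single-copy array of stages 11-12, and without the single-copy stem, and the count was 2 without arf6 arf8 stages 11-12 and 3 without arf6 arf8 stages 13-14, where 2.49% and 2.64% of all probe sets changed. The last stages were also set directly against the first. Between stages 13-14 and 1-10, limma called none of the 68 genes, where 18.7% of all probe sets were called in either direction, and 2 had an unadjusted p under 0.05. These were rps2, with -1.06 ± 0.33 (SE, adjusted p = 0.0507), and rpoC2, with -0.78 ± 0.25 (SE, adjusted p = 0.0551). The rps2 signal over the 3 stages was 2022.7, 1345.4 and 1414.6 in arf6 arf8, 1755.6, 598.5 and 410.1 in single-copy plants and 2002.7, 973.1 and 1210.3 in wild type. Stages 1-10 were the highest in each genotype. The count was 6 without arf6 arf8 stages 13-14, 2 without the arf6 arf8 stem and 1 without wild-type stages 13-14, where 16.1%, 17.5% and 16.9% of all probe sets changed. Class medians for stages 13-14 minus 1-10 were -0.42 for ribosomal proteins, -0.33 for the RNA polymerase, -0.24 for photosystem I, -0.10 for the NDH complex, 0.05 for photosystem II, 0.04 for the ATP synthase and 0.15 for cytochrome b6f. Of the tapetum and pollen markers, A9 fell by 5.12 and ANX1 rose by 1.64 at stages 11-12 against 1-10. The other pollen marker, MGH3, did not pass there (1.27, adjusted p = 0.0591), and its difference for stages 13-14 minus 1-10 was -0.01 (adjusted p = 0.987). Their part in the plastid values was not tested.

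**Figure D4:**
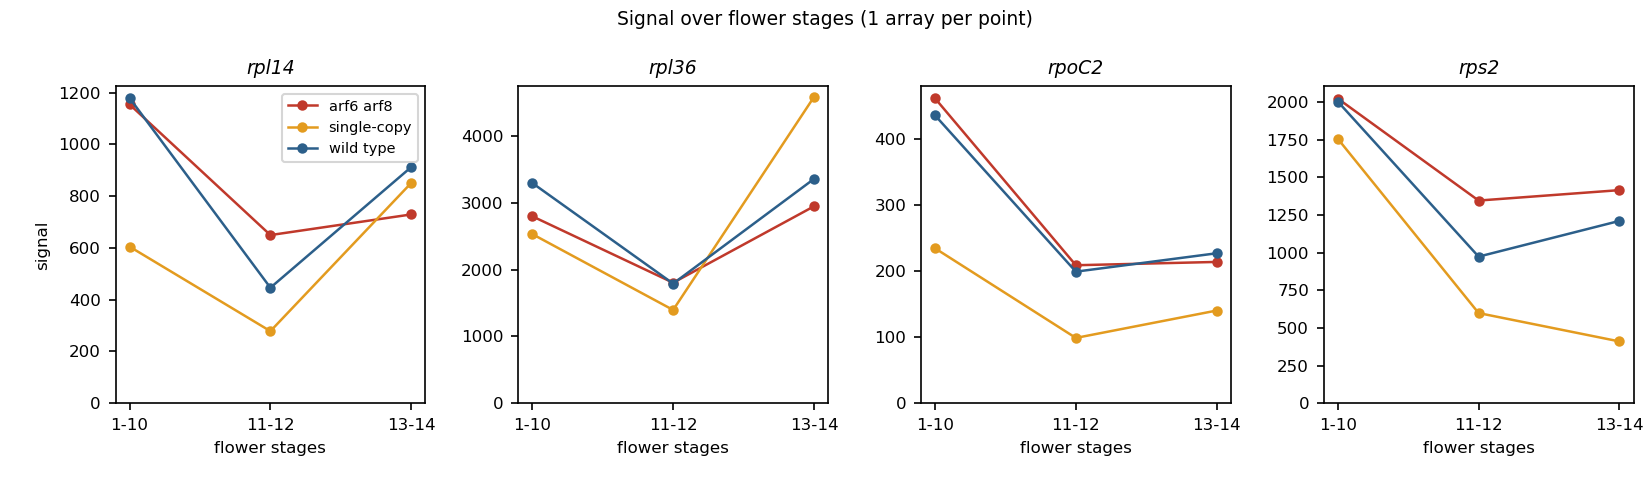
Signal (vertical axis, from 0) of rpl14, rpl36, rpoC2 and rps2 over flower stages 1-10, 11-12 and 13-14 (horizontal axis), 1 line per genotype and 1 array per point. Every line is lower at stages 11-12 than at stages 1-10, and rpl36 is higher again at stages 13-14 in each genotype.

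Genotypes were compared to ask whether loss of ARF6 and ARF8 changes plastid transcripts. In arf6 arf8 minus wild type over the 4 tissues, limma called none of the 68 genes, against 1.68% of all probe sets. An unadjusted p under 0.05 was found for 3 of the 68 genes (petN, rbcL and rps16) and for 3415 of all 17647 probe sets. The median difference was -0.03, with 30 genes above 0 and 38 below. The classes did not move one way: the ATP synthase median was 0.23 and photosystem II 0.09. Ribosomal proteins stood at -0.15 with 13 of 15 genes below 0, and the RNA polymerase at -0.21 with 4 of 4 below 0. Over stages 1-10, 11-12, 13-14 and stem, the ribosomal protein medians were -0.03, -0.15, 0.04 and -0.76. Those of the RNA polymerase were 0.04, -0.21, 0.02 and -0.70. In both classes the single pair of stem arrays gave the lowest median. rbcL, with a difference of 0.45 ± 0.18 (SE, adjusted p = 0.218), was at 248.1, 362, 355.4 and 285.1 in arf6 arf8 flowers of stages 1-10, 11-12 and 13-14 and stem. In wild type it was at 191.1, 276.6, 148.9 and 259.5. Each arf6 arf8 value was above its wild-type counterpart. rps16 went the other way, with -0.77 ± 0.34 (SE, adjusted p = 0.248), and was lower in arf6 arf8 in each of the 4 tissues.

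Tissue by tissue, the arf6 arf8 difference from wild type had a different sign in stem and in flowers of stages 13-14. The median over the 68 genes was 0.10 at stages 1-10, 0.04 at stages 11-12, 0.34 at stages 13-14 and -0.55 in stem. Over all probe sets it was between -0.01 and 0.07. A gene was counted as 2-fold different here when log2(signal + 50) differed by at least 1 and the higher signal was at least 200. At stages 1-10 none of the 68 genes was 2-fold different, against 2.05% of all probe sets. At stages 11-12, 3 were 2-fold higher, against 3.57%: atpA, atpF and psaA. That count is close to the share of all probe sets and is not read as particular to plastid genes. At stages 13-14, 10 were 2-fold higher and none 2-fold lower, against 5.33% of all probe sets higher. They were psaA, psaB, psbC, psbD, psbI, petL, atpA, ndhD, ndhE and rbcL. The psaA signal at stages 13-14 was 2323.8 in arf6 arf8 and 522.1 in wild type, psaB was at 8492.4 and 2371.3, psbD at 1663.2 and 452.8, and psbC at 5271.8 and 1681.3. The genes of the paired core proteins of photosystem I and of 2 core proteins of photosystem II were thus at least 2-fold higher on the arf6 arf8 array. The single-copy array of stages 13-14, which stood apart, was also above wild type for psaA, psaB, psbC and psbD, by 0.65, 0.38, 0.59 and 0.91. For these genes the wild-type array was therefore the lowest genotype at stages 13-14. In stem, 4 were 2-fold lower in arf6 arf8, against 1.62% of all probe sets: rps16, rps18, rpoC2 and psbN. There 61 of 68 genes were below wild type, against 8911 of 17647 probe sets. These are single-array comparisons with no replicate check.

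**Figure D5:**
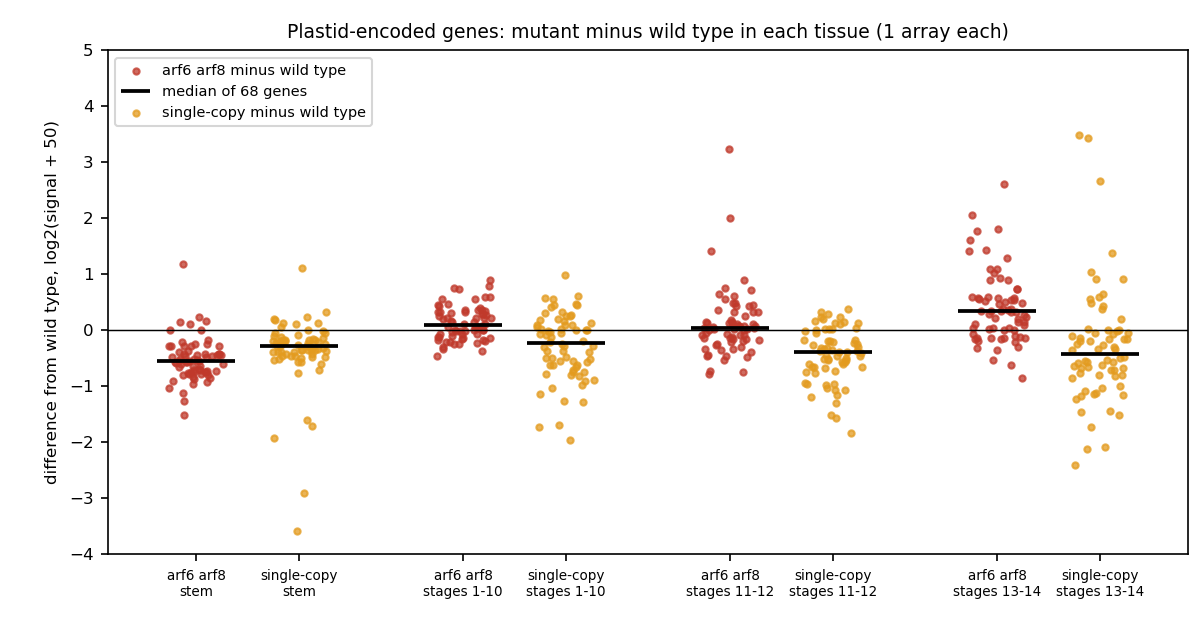
Difference from wild type on log2(signal + 50) (vertical axis) for each of the 68 genes, by tissue, for arf6 arf8 (left of each pair) and single-copy plants. Black lines are medians. They are -0.55 and -0.28 in stem and 0.34 and -0.42 at stages 13-14.

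Older flowers (stages 11-12 and 13-14) were set apart from stages 1-10 and stem, here called younger tissue, and each group is called a phase. Stem is not a flower stage, so this grouping mixes organ with stage. Unadjusted counts for these phases are given without the share over all probe sets and are not read as particular to plastid genes. In older flowers, arf6 arf8 minus wild type gave no call among the 68 genes by limma, against 5.96% of all probe sets, 7 genes with an unadjusted p under 0.05, and a median of 0.18. The largest differences were atpA with 2.93 ± 1.12 (SE, adjusted p = 0.163) and psaA with 1.73 ± 0.70 (SE, adjusted p = 0.183). Without the 2 single-copy arrays that stood apart, which enter only through the shared error, 5 genes were called higher: atpA, atpF, psaA, psbD and psbI, with adjusted p from 0.00435 to 0.0411. In that setting 13.8% of all probe sets were called in either direction, a larger share than among the 68 genes. Without either the single-copy array of stages 11-12 or that of stages 13-14 alone, 2 were called, atpA and psbI, against 13.2% of all probe sets each time. In younger tissue none was called, against 0.068% of all probe sets, with 2 unadjusted and a median of -0.20, and 15 of 15 ribosomal protein genes lay below 0. Younger tissue pools arrays that differ in sign: at stages 1-10 the median of the 68 genes was 0.10 and 6 of 15 ribosomal protein genes lay above 0, whereas in stem the median was -0.55 and none did. The median of younger tissue was -0.55 without arf6 arf8 stages 1-10 and 0.11 without the arf6 arf8 stem. The difference between these phases was itself tested. It gave no call, against 0.295% of all probe sets, with 1 gene under an unadjusted 0.05 (psbZ, 0.96 ± 0.26, SE, adjusted p = 0.223), and a median of 0.40 with 59 of 68 genes above 0. That median was 0.73 without arf6 arf8 stages 1-10 and 0.12 without the arf6 arf8 stem. Without the 2 single-copy arrays, atpA was called there, with 3.06 (adjusted p = 0.0414), against 0.17% of all probe sets.

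Single-copy arrays had lower plastid values than wild-type arrays for most genes, but no gene passed the test. In single-copy minus wild type over the 4 tissues, limma called none of the 68 genes, against 0.0227% of all probe sets. An unadjusted p under 0.05 was found for 13 of the 68 genes and for 951 of all 17647 probe sets. The median difference was -0.34, against -0.02 over all probe sets. Of the 68 genes 65 lay below 0, against 9566 of 17647 probe sets. The 68 genes share the same arrays and many share transcripts, so this count is not a test. rps4 had the smallest p, with -0.75 ± 0.23 (SE, adjusted p = 0.783), followed by psaI with -0.73 ± 0.24 (SE, adjusted p = 0.826) and ndhD with -0.73 ± 0.25 (SE, adjusted p = 0.863). The psaI signal was 1106.9, 916, 776 and 3207.3 in single-copy flowers of stages 1-10, 11-12 and 13-14 and stem, against 1572.6, 1797.8, 1797.4 and 4078 in wild type. The single-copy value was the lower one in each tissue. Leaving out the single-copy array of stages 13-14 moved the median to -0.24, and leaving out that of stages 1-10 as well moved it to -0.23. In older flowers alone none was called, against 0% of all probe sets, with 12 genes at an unadjusted p under 0.05 and a median of -0.38, which was -0.29 without the single-copy array of stages 13-14.

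By tissue, the median of single-copy minus wild type was -0.22 at stages 1-10, -0.38 at stages 11-12, -0.42 at stages 13-14 and -0.28 in stem. At stages 1-10, 6 genes were 2-fold lower, against 3.71% of all probe sets: psaA, psaB, psbC, psbD, atpA and rpl16. At stages 11-12, 9 were 2-fold lower, against 1.76%, and they again included psaA, psbC, psbD and atpA. At stages 13-14, 12 were 2-fold lower, against 2.98%, and 4 were 2-fold higher, against 2.76%. The lower ones held 6 ribosomal protein genes, with rps18 at 404.6 in single-copy plants and 2351.2 in wild type and rpl32 at 1118.4 and 5037.1. The higher ones were psbK, psbI, atpA and atpF. In stem, 5 were 2-fold lower, against 0.504%, and these were psbK, psbI, atpA, atpF and atpH, all neighbours. Which genes were low on single-copy arrays therefore differed between the array of stages 13-14 and the earlier flower arrays. The arrays of stages 1-10 and 13-14 are those that stood apart, so this is not read as a difference between stages.

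The mutants were also set against each other. In arf6 arf8 minus single-copy plants over the 4 tissues, none of the 68 genes was called by limma, against 0% of all probe sets. An unadjusted p under 0.05 was found for 15 of the 68 genes and for 3714 of all 17647 probe sets. The 15 genes are therefore not read as particular to plastid genes. The median difference was 0.35, against 0.04 over all probe sets, and 55 genes lay above 0, against 9671 of 17647 probe sets. The largest were atpA with 2.25 ± 0.94 (SE, adjusted p = 0.212) and psaA with 1.84 ± 0.50 (SE, adjusted p = 0.118). Over stages 1-10, 11-12, 13-14 and stem, psaA was at 3300.5, 2250.8, 2323.8 and 4335.2 in arf6 arf8 and at 412.5, 193.2, 846.8 and 4780 in single-copy plants. psbD was at 2230.4, 1311.6, 1663.2 and 2803.9 in arf6 arf8 and at 363.6, 341.5, 897.2 and 2672.9 in single-copy plants. The flower values were apart and the stem values close. Without the single-copy array of stages 13-14, 10 genes were called: accD, atpA, atpF, psaA, psbD, psbI and psbK higher in arf6 arf8, and rpl32, rpl33 and rps18 lower. In that setting 11.4% of all probe sets were called in either direction, so the 10 of 68 are not read as particular to plastid genes. These comparisons share arrays, so their differences are not independent of one another.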

How the data were processed

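Each of 12 Affymetrix arrays held biotin-labelled cRNA made from about 7 µg of total RNA. Per the submitters' processing notes, the authors made the values with MAS5; its version, the labelling primer and a genome build are not given in the sources used here. Deposited values are linear signal intensity per probe set, scaled by the authors to a common trimmed mean of 500, as the values show. The number of arrays limits the precision.

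Gene names came from the platform's probe table, joined by gene ID to the TAIR10.1 gene table. Of 22810 probe sets, 64 controls were left out and 17647 of 22746 kept (signal of 100 or more in 1 array); 13513 listed probe sets had 1 gene, 503 several, and 8730 were not listed. Arrays were rescaled to 500 (largest log2 shift 0.000128). log2(signal + 50) was fitted with limma 3.58.1 in R 4.3.3 (eBayes with trend; genotype plus tissue, or genotype by phase plus tissue), two-sided, with Benjamini-Hochberg adjustment over 17647 probe sets. The scripts were tested on simulated data. Summaries used Python 3.11.15. Genes named were the 3 brightest of each class, the examples in the rule for members, all genes past a threshold or the 5 largest, and those farthest from their class median; others named were chosen after their values were seen. The alternatives were other pseudocounts, filters, quantile normalization, no trend, and arrays left out. The members and lists were chosen with earlier results of these data known. No sequences were used.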

Additional observations from a re-analysis of the deposited data

How the results depend on the processing

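The stem count of 43 risen genes was 38 to 43 under other pseudocounts, filters, quantile normalization, no trend and without the 2 single-copy arrays of stages 1-10 and 13-14, and 22 to 47 with 1 array left out, and the median of 0.87 became 0.64 with a pseudocount of 200, which shrinks dim genes by construction, and 0.67 to 1.18 with 1 array left out. The count for stages 11-12 minus 1-10 was 1 with no filter, where more probe sets are tested, and 0 to 4 with 1 array left out; that for stages 13-14 minus 1-10 was 1 with a filter of 200 in 3 arrays, 2 with quantile normalization, and 0 to 6 with 1 array left out. The count for stages 13-14 minus 11-12 was 0 without the 2 single-copy arrays and 0 to 3 with 1 array left out.

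Without the same 2 arrays, arf6 arf8 minus wild type gave 5 calls in older flowers and 1 for older minus younger; the cause was not tested. With 1 array left out, arf6 arf8 minus single-copy gave 0 to 10 calls and arf6 arf8 minus wild type in older flowers 0 to 2. The median for arf6 arf8 minus wild type in younger tissue ran from -0.55 without arf6 arf8 stages 1-10 to 0.11 without its stem. The other genotype counts were 0 under each setting run. The fit already compares genotypes within tissues and tissues within genotypes; beyond that, no paired analysis was possible because every array carries the same replicate number. Signals near 100 give little over background, which limits atpI, rpoB, psbN, petD, petG, petN and rps14, and ycf3 in flowers.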

Other observations

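Class medians per array, as deviations of log2(signal + 50) from the mean of each gene over the 12 arrays, put the photosystem I genes of arf6 arf8 flowers above those of the other genotypes at each stage. They were 0.39, 0.07 and 0.33 over stages 1-10, 11-12 and 13-14 in arf6 arf8, -0.69, -0.77 and -0.86 in single-copy plants and 0.02, -0.01 and -0.32 in wild type. NDH genes were at -0.04, 0.10 and 0.29 in arf6 arf8 and at -0.50, -0.28 and -0.98 in single-copy plants, against -0.07, 0.04 and -0.22 in wild type. Ribosomal protein genes were at -0.03, -0.30 and -0.05 in arf6 arf8 and at -0.18, -0.57 and -0.98 in single-copy plants, against 0.12, -0.05 and -0.08 in wild type. These medians were not tested, and in single-copy plants the first and last stage come from the arrays that stood apart.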
